A study of Mus musculus with 2 samples.

Results

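The Hedgehog pathway genes described here are 9 core genes of Sonic hedgehog signalling, out of 21474 protein-coding genes in the tables. They are the ligand gene Shh, the receptor-side genes Ptch1, Smo, Boc and Hhip, and the effector-side genes Gli1, Gli2, Gli3 and Sufu. Each was found by its gene symbol in GENCODE on the mouse GRCm38 assembly, with no use of its measured level. All 9 were present in the gene tables. The samples were 2 pools of hindbrain from B6NCrl mouse embryos at day 16.5 of development, each with male and female embryos, and the labels name no treatment. Total RNA longer than 200 bases was sequenced from each pool as 1 library, starting from 10 ng. Replicate 2 pooled 37 embryos. There was 1 group, so no condition is compared, and permuting 2 libraries cannot give a p below 0.5, so no p is printed.

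Shh is a secreted signal that binds the membrane protein Patched 1, the product of Ptch1, and thereby releases Smoothened, the product of Smo, from inhibition. Active Smoothened works in the primary cilium and frees the Gli transcription factors from Sufu, which otherwise holds them in the cytoplasm and favours their repressor forms. Ptch1, Gli1 and Hhip are themselves transcribed in response to the pathway, and Ptch1 and Hhip proteins bind the ligand and limit it. In the late embryonic hindbrain the pathway is known for driving division of cerebellar granule cell precursors, with Purkinje cells as a ligand source, and earlier the floor plate of the neural tube secretes Shh.

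The tissue label was checked on marker genes. Of 6 genes of hindbrain position 5 reached 1 TPM in both libraries, as did 63.5% of all protein-coding genes. Among the 5 were Gbx2 at 29.1 ± 1.70 TPM (SD, n = 2), Hoxa2 at 18.5 ± 1.53 and Hoxb2 at 17.1 ± 0.523. En2 was the exception, at 0.34 and 0.46 TPM. TPM is a relative abundance corrected for transcript length, so genes can be ranked within a library. The replicates stood apart in genes of other tissues. All 11 skeletal muscle and cartilage genes were over 2-fold higher in replicate 1, with summed levels of 311 and 26.2 TPM. All 7 forebrain genes were too, with 16.1 and 0.33 TPM summed, and Emx1 and Nkx2-1 were at 0 in replicate 2. Library totals were 41543180 and 41346951 expected counts in genes. The highest of the muscle and cartilage list were Acta1, at 139.5 and 9.94 TPM, Actc1 and Col2a1, and the others were Ckm, Tnnt3, Myh3, Myog, Col9a1, Matn1, Col10a1 and Acan. Others of the forebrain list were Dlx1, which was highest at 7.94 and 0.07 TPM, Dlx2, Fezf2 and Six3.

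The 9 genes spanned a 22.3-fold range of mean level, with the intracellular inhibitor highest and the ligand lowest. In descending order of mean TPM they were Sufu, Boc, Ptch1, Smo, Hhip, Gli3, Gli2, Gli1 and Shh. At 1 TPM or more in both libraries were 8 of the 9, where 63.5% of all protein-coding genes reached that level. The ligand Shh was the exception. That share of 63.5% is the background for every count of detected genes given below. The median member stood at 4.475 TPM against 5.82 TPM over all protein-coding genes. In bulk tissue, fewer cells of a type and less RNA per cell cannot be told apart.

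**Figure D1:**
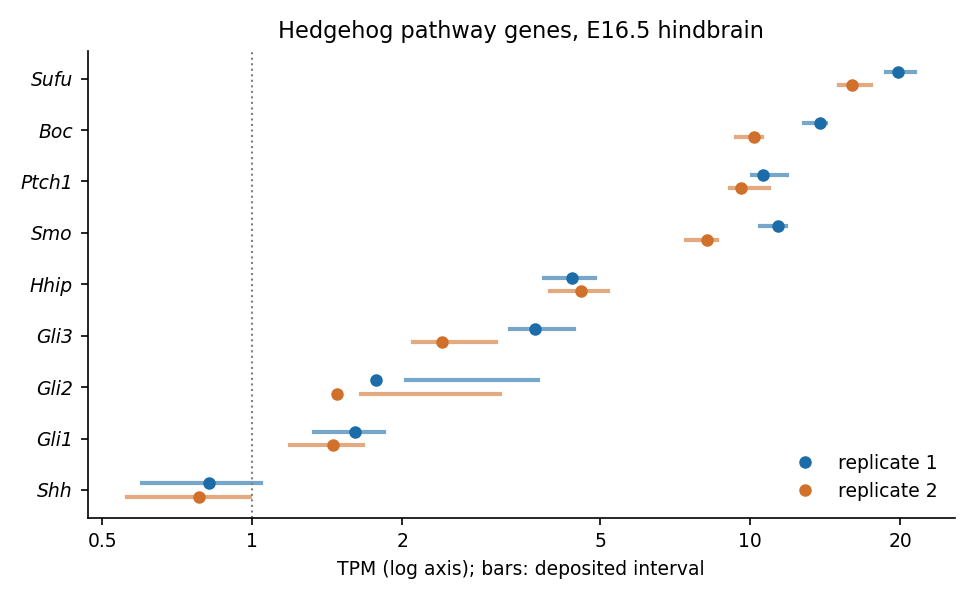
TPM of the 9 genes on a log axis, with points for the 2 replicates and bars for the interval deposited with each value; the dotted line marks 1 TPM. Sufu is highest, at 19.8 and 16.0 TPM, Shh lies below 1 TPM in both replicates, and both points of Gli2 lie to the left of their own intervals.

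Shh (ENSMUSG00000002633.3, chromosome 5, 28456815 to 28467256, minus strand) was at 0.82 TPM in replicate 1 against 0.78 in replicate 2, from 53.28 and 51.87 expected counts. The deposited intervals ran from 0.60 to 1.04 and from 0.56 to 0.99 TPM, so the intervals overlapped almost fully. Shh lay above 34.2% of protein-coding genes in mean level. In GENCODE M21 its exons share 446 bases with 9530036O11Rik, at 0.17 and 0.06 TPM, and 361 bases with Gm26894, at 0.91 and 0.42, both on the opposite strand. The sources name no strand setting for the counts, and the authors' model gave the Shh count a posterior SD of 1.72 in replicate 1 and 2 in replicate 2. Exons of Hhip share 175 bases with Gm27820, at 2.16 and 2.12 TPM, and its count had a posterior SD of 0.98 and 0.91. Exons of Gli1 share 62 bases with Arhgap9, at 0.65 and 0.66 TPM, and 265 bases with Gm47200, which has no value in the gene tables. The Gli1 count had a posterior SD of 0 in both libraries, which cannot cover reads of a gene that was not counted. Exons of Gli3 share 188 bases with Gm6556, at 0.09 and 0.25 TPM, and the Gli3 count had a posterior SD of 0.56 and 0.66. Arhgap9, Gm47200 and Gm6556 lie on the opposite strand. A930032L01Rik within Ptch1 and Gm13717 within Smo share 0 exonic bases with them.

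Among the other ligand genes, Dhh was higher than Shh in both libraries. Dhh, the Desert hedgehog gene of Schwann cells, was at 1.79 and 1.99 TPM in replicates 1 and 2, which is 2.36-fold above Shh. The log2 ratio of Shh over Dhh was -1.24 ± 0.16 (SD, n = 2), and the intervals did not overlap in either library. Ihh, the Indian hedgehog gene of developing cartilage, was lowest, at 0.25 and 0.21 TPM, with Shh 3.49-fold above it. Sox10, a gene of Schwann cells and also of oligodendrocyte precursors, was at 7.29 and 7.85 TPM, and the part of Schwann cells in the Dhh level was not tested.

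Genes for ligand processing and release were all above 1 TPM. The list of ligand and release genes other than Shh had 6 of 7 members detected and a median of 2.845 TPM. Disp1, which releases the lipid-bearing ligand from the cell, was highest at 6.40 ± 0.424 TPM. Scube1, a secreted carrier, followed at 3.95 ± 1.23 TPM, with 4.82 in replicate 1 and 3.08 in replicate 2. The acyltransferase gene Hhat, which attaches palmitate to the ligand, had 2.86 ± 0.0424 TPM.

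The receptor-side genes all stood above the ligand. Ptch1 (ENSMUSG00000021466.7, chromosome 13, 63508328 to 63573598, minus strand) stood at 10.61 and 9.59 TPM in replicates 1 and 2, from 1775 and 1627 counts. It was 12.6-fold above Shh, with a log2 ratio of 3.66 ± 0.05. Smo (ENSMUSG00000001761.6, chromosome 6, 29735503 to 29761365, plus strand) stood at 11.39 and 8.17 TPM, so it was above Ptch1 in the first library and below it in the second. The log2 ratio of Smo over Ptch1 was 0.10 and -0.23, and the 2 genes were not told apart.

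Boc (ENSMUSG00000022687.7, chromosome 16, 44485049 to 44558897, minus strand), which encodes a co-receptor that binds the ligand together with Patched 1, reached 13.83 and 10.17 TPM in replicates 1 and 2. Replicate 1 was higher, and the intervals of 12.85 to 14.21 and 9.38 to 10.54 TPM did not overlap. Boc was above Smo in both libraries by 1.23-fold, while its intervals overlapped those of Ptch1 in at least 1 library. The related co-receptor gene Cdon was at 2.40 and 3.05 TPM, so Boc was 4.38-fold higher. On the log2 scale this was 2.53 and 1.74 in the 2 libraries, a spread of 0.56 (SD, n = 2).

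Hhip (ENSMUSG00000064325.3, chromosome 8, 79965851 to 80058006, minus strand), whose product binds the ligand at the cell surface and is also a pathway target, was at 4.38 TPM in replicate 1 against 4.57 in replicate 2, with overlapping intervals. It was 2.25-fold below Ptch1, with a log2 ratio of -1.17 ± 0.15, and 5.59-fold above Shh.

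Of 5 other reception genes 4 were detected, and the list median was 7.285 TPM. Gpc3, a glypican that restrains the ligand, was the highest at 71.9 ± 9.17 TPM, and Gas1, a further co-receptor, had 11.0 ± 1.81 TPM. Lrp2, an endocytic receptor of apical membranes, was the member under 1 TPM, at 0.79 and 0.52.

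The 3 Gli genes were low and close to each other, while Sufu was the highest member. Sufu (ENSMUSG00000025231.12, chromosome 19, 46396896 to 46488804, plus strand) was at 19.82 TPM in replicate 1 against 16.01 in replicate 2, from 1997 and 1633 counts. Its level exceeded that of each other member in both libraries. It was 11.7-fold above Gli1 and 5.99-fold above Gli3, with log2 ratios of 3.54 ± 0.11 and 2.58 ± 0.22.

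Gli3 (ENSMUSG00000021318.11, chromosome 13, 15463235 to 15730026, plus strand), which encodes the main Gli repressor, stood at 3.69 and 2.40 TPM in replicates 1 and 2. Replicate 1 was higher, and its interval of 3.30 to 4.43 TPM did not reach that of replicate 2, 2.10 to 3.08. Gli1 (ENSMUSG00000025407.6, chromosome 10, 127329882 to 127341974, minus strand), an activator whose transcription is a standard readout of pathway activity, was at 1.61 and 1.45 TPM, with overlapping intervals. Gli3 was 1.95-fold above Gli1 with intervals apart in both libraries.

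Gli2 (ENSMUSG00000048402.10, chromosome 1, 118834132 to 119053619, minus strand), which encodes the main primary activator, was listed at 1.77 TPM in replicate 1 against 1.48 in replicate 2. Its deposited intervals, 2.04 to 3.74 and 1.65 to 3.14 TPM, lay above those values in both libraries. It was the only member whose TPM fell outside its interval. The posterior mean, a second deposited estimate, put the level of Gli2 at 2.585 TPM on average against 1.625 from TPM. The log2 ratio of Gli2 over Gli1 was 0.083 from TPM and 0.78 from posterior means, and that of Gli3 over Gli2 was 0.88 and 0.29. Gli2 lay between Gli3 and Gli1 by both estimates, nearer to Gli1 by TPM and nearer to Gli3 by posterior mean.

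Across all 36 pairs of members, those with Shh included, 31 pairs (86.1%) had intervals apart in both libraries with the same order, where 89.2% of all pairs of detected protein-coding genes did. The pairs that were not told apart were Boc and Ptch1, Ptch1 and Smo, Hhip and Gli3, Gli3 and Gli2, and Gli2 and Gli1. These are all neighbours in the order of levels. Of 13 ratios between genes of different or paired roles, 10 had intervals apart in both libraries. The ratios without a call were Smo over Ptch1, Gli2 over Gli1 and Gli3 over Gli2. The pathway targets among the members differed from each other, with Ptch1 6.60-fold above Gli1 and Hhip 2.93-fold above it. The log2 ratio of Gli1 over Ptch1 was -2.72 in replicate 1 and -2.73 in replicate 2.

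Of the 9 genes 6 had more than 1 transcript listed, and in each of them the same transcript led in both libraries with at least 50% of the gene's TPM. Among 9943 detected protein-coding genes with several transcripts, 70.4% met that rule. Shh, Smo and Gli1 had 1 transcript each in the authors' annotation.

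For Ptch1 the leading transcript was Ptch1-202, with 74.83% of TPM in replicate 1 and 80.88% in replicate 2. Ptch1-204, which is annotated as a target of nonsense-mediated decay, held 14.47% and 12.57%. Ptch1-201 held 4.57% in replicate 1 and 0% in replicate 2. Ptch1-201 and Ptch1-202 differ in their first exon, and the leading one is annotated with a shorter coding sequence. The first exon of Ptch1-201 lies on chromosome 13 at 63565362 to 63565735 and that of Ptch1-202 at 63564458 to 63564535, with start sites 1200 bases apart. The start codon of Ptch1-201 lies in its exon 1, and that of Ptch1-202 in exon 3, so the coding sequence has 4305 bases in the first and 3894 in the second. The missing 411 bases are 137 codons at the amino-terminal end.

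The bases shown next mark where the 2 annotated proteins begin, read from GENCODE M21 transcripts on GRCm38, 5′ to 3′, with start codons in capitals. The first run is the coding part of exon 1 of Ptch1-201 (chr13:63565362-63565520, minus strand), which Ptch1-202 lacks. The second is shared by both transcripts (chr13:63548097-63548156, minus strand), and its capitals mark where the coding sequence of Ptch1-202 begins.
Ptch1-201 exon 1: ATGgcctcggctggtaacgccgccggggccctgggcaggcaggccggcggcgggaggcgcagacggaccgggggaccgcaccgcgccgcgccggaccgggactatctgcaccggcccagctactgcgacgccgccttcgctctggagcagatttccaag
Ptch1 exon 3: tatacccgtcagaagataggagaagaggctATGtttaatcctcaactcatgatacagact
Ptch1-202 also has an intron of 419 bases within the 3′ untranslated region, from 63511113 to 63511531, that Ptch1-201 keeps as exon. Their other exons are shared, and reads in shared exons are divided between transcripts by the authors' model, so the share of Ptch1-202 is not a measure of its first exon alone. The deposited intervals were 6.87 to 8.32 TPM for Ptch1-202 and 0.99 to 2.03 TPM for Ptch1-204 in replicate 1, which do not overlap.

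For Sufu the leading transcript was Sufu-201, with 84.12% in replicate 1 and 82.83% in replicate 2, followed by Sufu-202 with 11.16% and 10.71%. Both are annotated as protein coding. Their coding sequences, of 1455 and 1458 bases, differ by 3 bases at the start of exon 7. The spliced sequences around that site, on chromosome 19 plus strand, are shown because these 3 bases, in capitals, are the whole difference between the 2 annotated coding sequences.
Sufu-201: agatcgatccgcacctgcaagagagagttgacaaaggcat
Sufu-202: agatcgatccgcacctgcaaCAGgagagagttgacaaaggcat
The transcripts also differ in total length, 4522 bases against 1747.

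Gli3-201, the full-length transcript, held 59.07% of Gli3 TPM in replicate 1 and 64.33% in replicate 2. Gli3-202, whose annotated coding sequence of 1789 bases matches the start of the 4752 bases of Gli3-201 and ends without a stop codon, held 28.55% and 26.35%. Gli3-203, which retains an intron, held 12.38% and 9.32%. Full-length Gli3 alone stood at 2.18 and 1.54 TPM.

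For Gli2 the full-length Gli2-201 held 93.42% in replicate 1 and 76.96% in replicate 2 of the TPM, which is 1.66 and 1.14 TPM. The 8 shorter transcripts, of 367 to 1411 bases, held 6.58% and 23.04%. By the posterior mean those 8 held 44.8% in replicate 1 and 53.6% in replicate 2, most of it on transcripts that TPM put at 0. In replicate 2 the shorter share by TPM was Gli2-206 alone, from 11.51 counts.

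Hhip-201 held 88.57% in replicate 1 and 80.74% in replicate 2, and the remainder was Hhip-202, a processed transcript with 10.18 and 18.34 counts. For Boc, 95.63% and 97.51% of TPM fell on ENSMUST00000023370, which has no entry in GENCODE M21, so Boc has no value by transcript type.

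**Figure D2:**
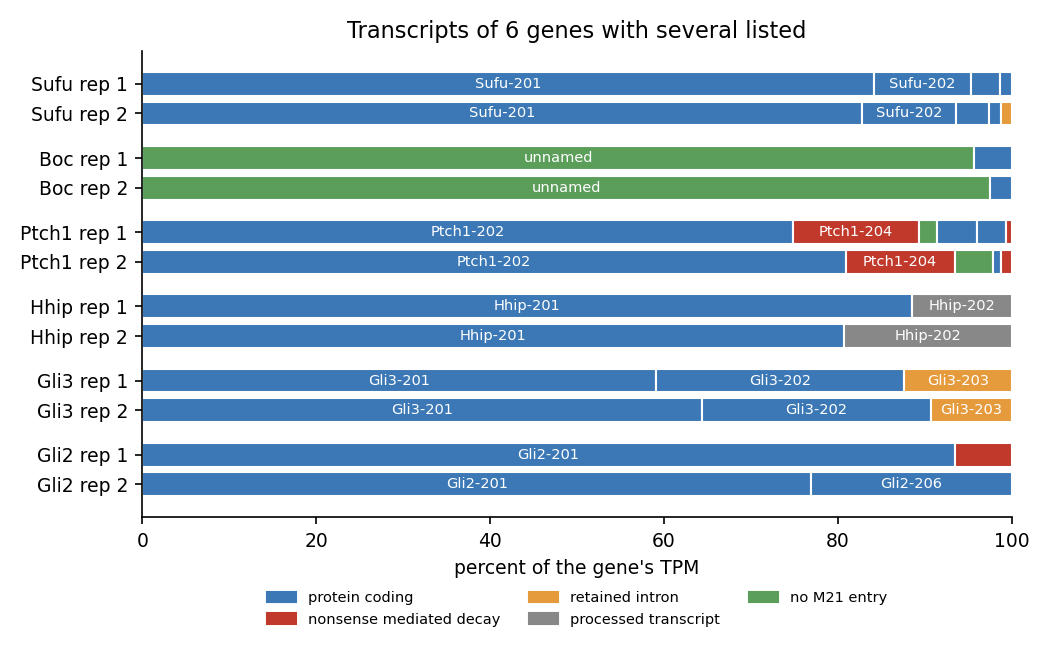
Percent of each gene's TPM held by each transcript in replicates 1 and 2, for the 6 genes with several transcripts, coloured by GENCODE transcript type. Ptch1-202 holds 74.8% and 80.9% of Ptch1, Gli3 is divided between 3 transcripts, and the second share of Gli2 differs between the replicates.

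The promoter windows were searched for the Gli binding consensus, GACCACCCA on either strand, in the RefSeq table for GRCm38.p6, which gives 250 bases before and 50 after each start. Gli2, Gli3, Hhip, Ptch1, Smo and Sufu had a window there. None of the 6 windows held the 9 letters, which occur in 83 of 32851 windows (0.253%). The absence of these letters says nothing of binding. The Ptch1 window, chr13:63565686-63565985, lies at the start of Ptch1-201 and not at that of Ptch1-202.

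No member differed by 2-fold between the pools. Of the 8 members with a mean of 1 TPM or more, 0 were past 2-fold in either direction, where 1.11% of 13843 protein-coding genes were over 2-fold higher in replicate 1 and 0.397% in replicate 2. With TMM scaling, which equalises the bulk of genes between libraries, Gli3 differed most, with a log2 ratio of replicate 2 over replicate 1 of -0.50 and a counting interval of -0.70 to -0.31. Smo followed at -0.43, Gli2 at -0.42, Boc at -0.39 and Sufu at -0.28. Closest to 0 were Shh and the 3 members that are pathway targets, Hhip at 0.0048, Gli1 at -0.10 and Ptch1 at -0.11. Shh was at -0.013, with an interval of -0.59 to 0.57. The Gli1 interval of -0.45 to 0.25 held the values of Smo, Gli2, Boc and Sufu, so Gli1 was not told apart from them. Of 11 other reported targets, 9 were higher in replicate 1, with a list median of -0.16 and Olig2 at -0.85. All 9 members lay inside the central 95% of protein-coding genes, which ran from -0.65 to 0.45.

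With TMM scaling 8 of 9 members were higher in replicate 1, against 53.1% of protein-coding genes. With spike-in scaling 1 of 9 was, namely Gli3 at -0.052, but the median protein-coding gene then also lay toward replicate 2, at 0.43. Below the protein-coding median were 7 members with TMM and 8 with spike-in totals. The members' median log2 ratio with TMM was -0.28, against -0.015 over protein-coding genes. Deposited TPM intervals of the 2 libraries were apart for Smo, Boc, Gli3 and Sufu, 4 of 8, and all 4 were higher in replicate 1. Over protein-coding genes 22.3% were apart toward replicate 1 and 9.07% toward replicate 2. Scaling by spike-in totals moved the median protein-coding gene by 0.45 (log2), and under it the median of the members was 0.17, still 0.26 below that of protein-coding genes. The TPM intervals cover counting and assignment error within a library and not the spread between pools.

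**Figure D3:**
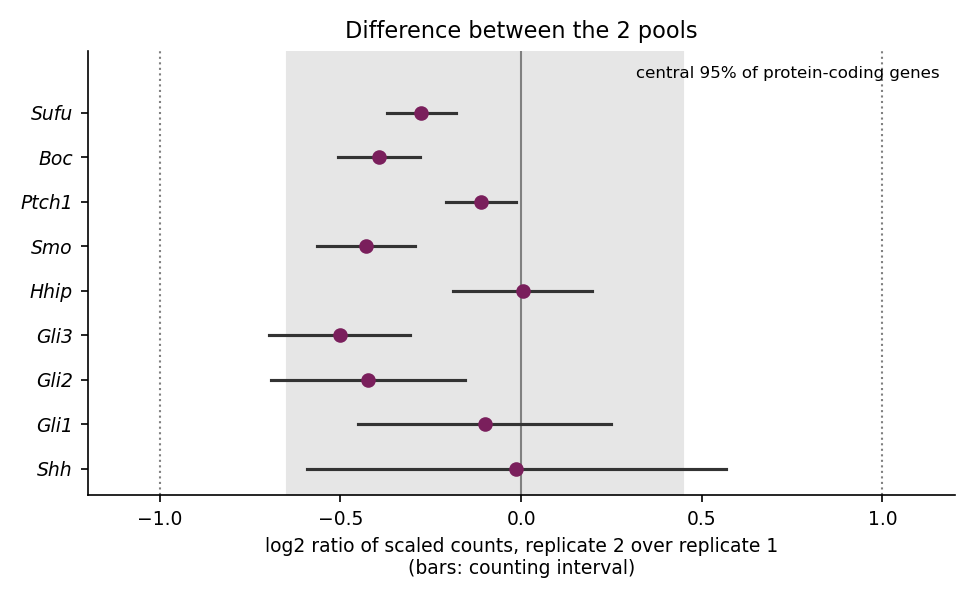
Log2 ratio of TMM-scaled counts, replicate 2 over replicate 1, for the 9 genes, with 95% counting intervals as bars and the central 95% of protein-coding genes as a grey band; dotted lines mark 2-fold. All 9 points lie inside the band, and Gli3, at -0.50, is farthest from 0 with this scaling; with spike-in totals its value is -0.052.

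With TMM scaling, 5 marker lists had larger median differences between the pools than any member. They were muscle and cartilage, forebrain, Schwann cells and sensory neurons, floor plate, and meninges. Muscle and cartilage genes had a median log2 ratio of -3.76 and forebrain genes -5.61, with 11 of 11 and 7 of 7 past 2-fold. The lists were chosen with earlier results of these data known. Nkx2-1, which marks a ventral forebrain domain that makes Shh, was at 0.45 TPM in replicate 1 against 0 in replicate 2, from 24 and 0 counts. Shh had 0.82 and 0.78 TPM, from 53 and 52 counts, and the part of forebrain cells in its level was not tested. Meningeal and fibroblast genes had a median of -0.55, with 5 of 5 higher in replicate 1 and summed levels of 581 and 318 TPM. Of that list Col1a1 was past 2-fold, at 230.75 and 88.04 TPM. The part of these cells in the ratios of Gli3, Smo, Boc and Sufu was not tested.

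The lists of Purkinje cell genes and of granule cell lineage genes had median log2 ratios above 0 with TMM scaling. Floor plate genes were mostly higher in replicate 1. The 6 Purkinje cell genes had a median of 0.18, summed levels of 145 and 138 TPM and 5 detected members, led by Foxp2 at 35.9 ± 8.93 TPM, Rora at 32.6 ± 1.03 and Calb1 at 30.9 ± 4.61. Foxp2, at 42.24 and 29.61 TPM, and Lhx5 were higher in replicate 1, with log2 ratios of -0.42 and -0.22. All 5 granule cell lineage genes were detected, with a median ratio of 0.19 and summed levels of 115 and 122 TPM. Neurod1 and Pax6 were highest, at 38.5 ± 3.68 and 35.4 ± 1.77 TPM. In this list the exception in direction was Atoh1, the factor of the dividing precursors, at 12.30 and 7.64 TPM, a log2 ratio of -0.64. The 5 floor plate genes had a median of -0.56 and summed levels of 92.0 and 72.8 TPM, and 4 were higher in replicate 1, with Ntn1 at 18.17 and 11.10 TPM. Foxa2, which marks the floor plate and is also a pathway target, had 0.97 and 0.63 TPM. Spon1 was highest of that list, at 60.1 ± 7.80 TPM. The part of floor plate cells in the ratios of the members was not tested. Among the remaining lists, radial and Bergmann glia genes summed to 2520 and 2980 TPM, of which Fabp7 made up 1841 and 2399, and their median log2 ratio was 0.0056. Choroid plexus genes summed to 1503 and 1858 TPM, of which Ttr made up 1422.5 and 1775, and their median was 0.024. All 5 genes of each were detected. Schwann cell and sensory neuron genes, led by Prph at 65.8 and 41.72 TPM, summed to 102 and 66.6 with a median of -0.61 and 4 of 5 detected.

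**Figure D4:**
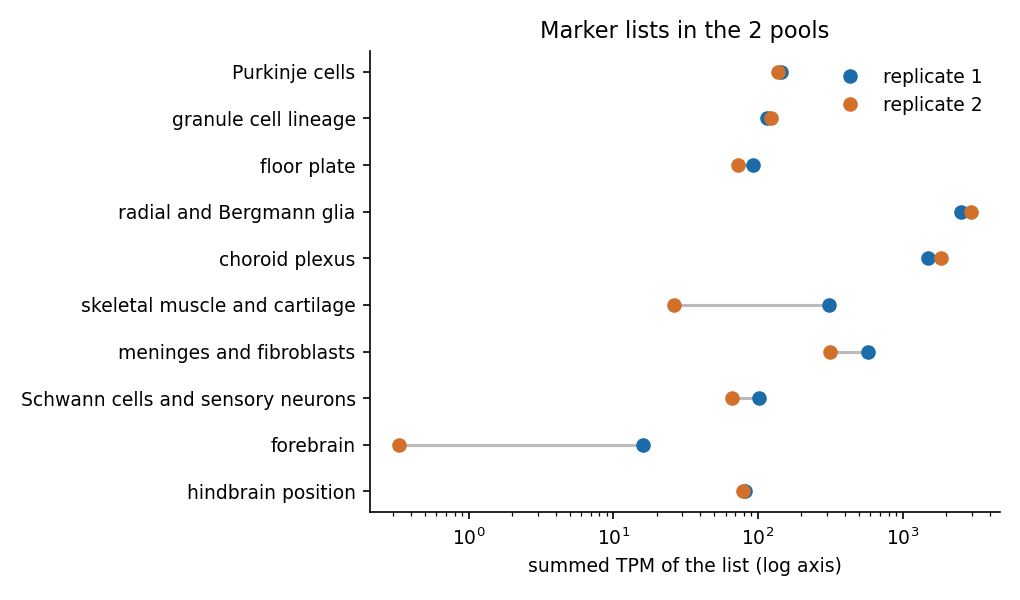
Summed TPM of each marker list in replicates 1 and 2, on a log axis, with a grey line joining the pools. Muscle and cartilage (311 and 26.2 TPM) and forebrain (16.1 and 0.33 TPM) lie far apart, and hindbrain position genes (81.8 and 79.4 TPM) almost coincide.

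Beyond the 9 members, 45 of 49 other pathway genes were detected, where 63.5% of all protein-coding genes were. Their median was 11.03 TPM and 0 were past 2-fold between the pools. Their median log2 ratio was -0.082. These genes were grouped by role.

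Every one of 15 genes of the cilium and of Smoothened control was detected, and their median was 12.45 TPM. Kif3a, a motor subunit that builds cilia and also serves axonal transport, was highest at 261 ± 24.0 TPM, and the ubiquitin ligase gene Mgrn1 had 102 ± 3.68. Kif7, the kinesin of the cilium tip that acts with Sufu on Gli proteins, was lowest at 1.40 ± 0.0495 TPM, and Gpr161, a ciliary receptor that opposes the pathway, had 2.64 ± 0.156.

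The 11 genes of Gli modification and turnover, each detected, had the highest median of the role lists, 106 TPM. The protein kinase A subunit genes Prkar1a, at 410 ± 18.0 TPM, and Prkaca, at 190 ± 31.0, and the adaptor gene Spop, at 196 ± 16.4, exceeded every member. These proteins act on many other substrates. The lowest were the kinase genes Dyrk2 at 7.28 ± 0.0566 and Ulk3 at 13.5 ± 1.01 TPM.

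Of 11 other reported targets 9 were detected, and the list median was 8.25 TPM. The cyclin gene Ccnd2, at 60.59 and 42.29 TPM, and the proliferation factor gene Mycn, at 53.30 and 47.67, were highest, and both stood far above Gli1. Olig2, a factor of motor neuron and oligodendrocyte precursors, stood at 9.92 and 5.30 TPM, a log2 ratio of -0.85. The ventral factors Nkx2-2, at 2.75 and 3.52 TPM, and Nkx6-1, at 3.70 and 2.76, were near Gli3 in level. Foxa2 and Foxf1 were the 2 not detected, and Foxf1 stood at 0.91 and 1.09 TPM.

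**Figure D5:**
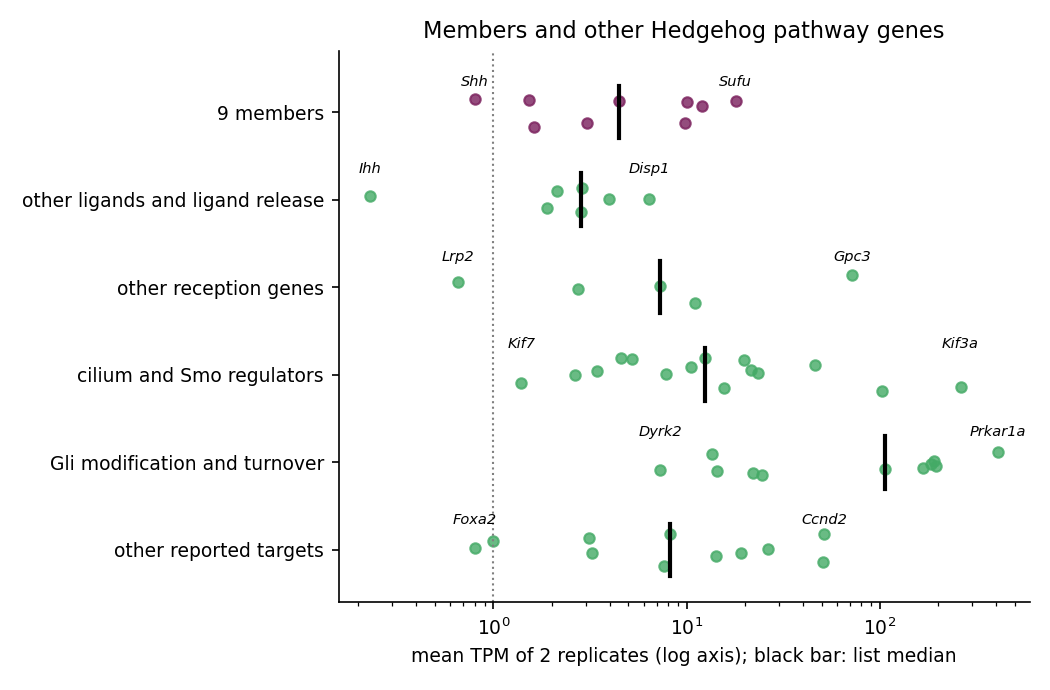
Mean TPM of the 9 members and of the other pathway genes by role, on a log axis, with the list median as a black bar and the lowest and highest gene of each list named; the dotted line marks 1 TPM. The members' median of 4.475 TPM lies below that of Gli modification and turnover, 106 TPM, and above that of other ligand and release genes, 2.845 TPM.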

How the data were processed

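Each replicate was quantified separately by the authors against mm10 and GENCODE M4, per the deposited notes, which name no quantifier in the text used here. The deposited expected counts are estimated reads per gene or transcript, often fractional. TPM and FPKM, also deposited, correct for effective length, and interval bounds on them, treated as scores here, were deposited without a stated level. The percent of a gene's TPM per transcript is also the authors'.

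Symbols, types and positions came from GENCODE M21, which matched 42462 of 43346 Ensembl genes. A gene was detected at 1 TPM in both libraries. A pair was called when intervals did not overlap in either library, in the same order. Rounded expected counts, spike-ins left out, were scaled by the TMM method of edgeR 4.0.16 under R 4.3.3 with a prior count of 0.5, and counting intervals are exact binomial at 95%. DESeq2 1.42.0 gave alternative size factors. Python 3.11.15 and pandas 2.3.3 handled tables. The ratio calculation was also tested on simulated data. Named genes are all members, at least the 2 highest and 2 lowest of each pathway list, and up to 3 of each marker list plus those past 2-fold. Atoh1, En2 and Lhx5, and the overlapping genes, are exceptions to this rule, chosen after seeing the values. Members, lists and ratios were chosen with earlier results of these data known. Counting intervals cover counting error only. Values of some list genes are not reported here, and protein sequences were not used.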

Additional observations from a re-analysis of the deposited data

How the results depend on the processing

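No paired analysis was possible because there is 1 group. Of 253 alternative values 209 moved by less than the replicate spread or kept their call and 44 moved further. In 13 the sign changed, each for a ratio under 2-fold: 8 were replicate ratios under spike-in totals, of 7 members and of the median. The others were Smo over Ptch1, which was 0.22 with protein-coding transcripts alone and 0.10 without replicate 2, and the replicate ratio of Hhip, which was -0.0097 with DESeq2 size factors, -0.0029 with library totals and -0.022 with protein-coding transcripts alone. In counts of detected genes, a minimum of 5 TPM left 4 members in place of 8, and 1 of the other ligand and release genes in place of 6. In FPKM, which differs from TPM by a factor of the library, the median member stood at 2.695. With the minimum of 1 set on FPKM, 6 members were detected in place of 8, as Gli1 and Gli2 fell below it. Under spike-in scaling the median replicate ratio of the members was 0.17 in place of -0.28. Leaving out replicate 1 or 2 gave a member median of 4.57 or 4.38 TPM. With posterior means Gli2 kept its place between Gli3 and Gli1, and its distance to each changed. With 2 libraries of 1 group, a permutation of samples cannot give a p below 0.5, and no ratio between genes was tested. Counts of 53 and 52 limit statements on Shh. The 2 alternatives on posterior mean TPM for detection and for isoforms were added after seeing the data. Boc has no value from protein-coding transcripts.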
